A study of Homo sapiens with 4 samples.

Results

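The RNA of 10 genes for antimicrobial proteins and protease inhibitors was described in untreated HaCaT. This is a spontaneously immortalized keratinocyte line from human skin. The genes were taken by symbol and are DEFB1, DEFB4A, DEFB103A, CAMP, RNASE7, LCN2, PI3, SLPI, LYZ and SPINK5. Each symbol had 1 row among the 19233 protein-coding genes and the 44591 genes of all classes in the files. The data are RNA-seq of 1 condition with 4 biological replicates, and nothing in the labels says that these were separate cultures. The cells grew in Dulbecco's modified Eagle medium with 12% fetal bovine serum and were not treated. There was no second group, so the values are levels and the comparisons are between genes within a replicate or between replicates.

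Keratinocytes meet microbes at the skin surface and secrete small proteins against them. Beta-defensins (DEFB genes) and cathelicidin (CAMP) are cationic peptides that damage microbial membranes, RNASE7 is a ribonuclease that kills bacteria, lysozyme (LYZ) cuts bacterial cell walls, and lipocalin 2 (LCN2) withholds iron from bacteria by binding their siderophores. The antiproteases hold back proteases of neutrophils or of the epidermis itself. SLPI and elafin (PI3) inhibit neutrophil elastase through a whey acidic protein (WAP) domain, and LEKTI (SPINK5) inhibits the kallikreins that shed the outermost skin cells. In epidermis DEFB1 is known as a constitutive defensin, while DEFB4A, DEFB103A, LCN2 and PI3 are known to be induced by inflammation.

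The sequence before the transcription start is shown for the 3 detected genes with an entry in the RefSeq promoter table (GRCh38.p14), 250 bases each, 5′ to 3′ on the plus strand. The positions are chr9:128149203-128149452 for LCN2, the gene with the highest mean, chr14:21042112-21042361 for RNASE7, the lowest detected one, and chr5:148063730-148063979 for SPINK5, a gene high in replicate 1. Capitals mark matches to 2 of the 5 motifs searched, an AP-1-like motif (TGANTCA, with any middle letter) and a C/EBP-like motif (TTNNGNAAT).
LCN2: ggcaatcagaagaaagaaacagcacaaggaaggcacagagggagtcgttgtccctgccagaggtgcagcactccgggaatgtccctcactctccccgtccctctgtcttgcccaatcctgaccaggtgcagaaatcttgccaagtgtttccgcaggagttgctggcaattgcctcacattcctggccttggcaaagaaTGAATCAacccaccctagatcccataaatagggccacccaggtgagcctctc
RNASE7: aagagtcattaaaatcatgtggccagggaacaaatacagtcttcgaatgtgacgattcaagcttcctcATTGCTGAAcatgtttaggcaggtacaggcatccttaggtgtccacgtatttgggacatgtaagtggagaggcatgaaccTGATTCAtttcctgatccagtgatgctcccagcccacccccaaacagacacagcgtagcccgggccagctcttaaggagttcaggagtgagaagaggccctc
SPINK5: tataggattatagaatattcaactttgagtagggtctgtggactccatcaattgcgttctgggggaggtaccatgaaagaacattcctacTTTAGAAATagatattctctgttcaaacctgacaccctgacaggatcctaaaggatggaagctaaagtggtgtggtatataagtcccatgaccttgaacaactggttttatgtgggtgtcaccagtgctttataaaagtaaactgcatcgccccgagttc
The AP-1-like letters stood at -52 to -46 from the start of LCN2 and at -102 to -96 from that of RNASE7. The C/EBP-like letters stood at -182 to -174 in RNASE7, on the minus strand, and at -160 to -152 in SPINK5. On both strands of the whole window, which runs to 50 bases after the start, 7.76% of 27305 promoters held the AP-1-like motif. The C/EBP-like motif was held by 11.2%. CAMP, the other member with an entry, matched neither. No match in these 4 windows was found for a GAS-like motif (TTCNNNGAA, in 7.88% of promoters), a kappa-B motif (in 1.92%) or an ISRE-like motif (in 3.65%). Each motif was searched as 1 pattern, of 10 letters for kappa-B, and other forms of these sites were not searched. The lack of a match therefore does not show that a site is absent, and a match describes the letters only.

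The libraries held 17056035 to 73082279 counts, and replicate 1 was the deepest. Protein-coding genes took 76.1% of the counts in replicate 1 and 95.3% to 96.4% in the others. Levels are given as TPM over protein-coding genes, that is counts per gene length scaled to 1000000 in each library, so genes can be compared per length. Replicate 1 stood apart from the rest, with a Spearman correlation across detected genes of 0.754 to 0.780 with the other replicates against 0.944 to 0.967 among those. Levels and differences of members that rest on replicate 1 are therefore given with and without it. Counts of 3 or fewer were taken as at the limit of detection.

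LCN2 and SLPI were the most abundant members, PI3 and SPINK5 were intermediate, RNASE7 was low, and the inducible defensins, cathelicidin and lysozyme were at or near 0. DEFB1 was abundant in replicate 1 and at the limit of detection in the other 3. A mean TPM above 1, here called detected, was reached by 6 of 10 members, against 63.3% of protein-coding genes. More than 3 counts in every replicate were found for 5 of 10 (LCN2, SLPI, PI3, SPINK5 and RNASE7), against 65.7% of protein-coding genes, and 0 counts in all 4 for CAMP and DEFB103A, against 14.2%. The 10 members together had a TPM of 437, 444, 526 and 529 in replicates 1 to 4. In TPM over all RNA classes they summed to 135 in replicate 1 against 394 to 492 elsewhere. LCN2 made up 13.96% of that sum in replicate 1 and 77.7%, 79.2% and 90.5% in the others.

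**Figure D1:**
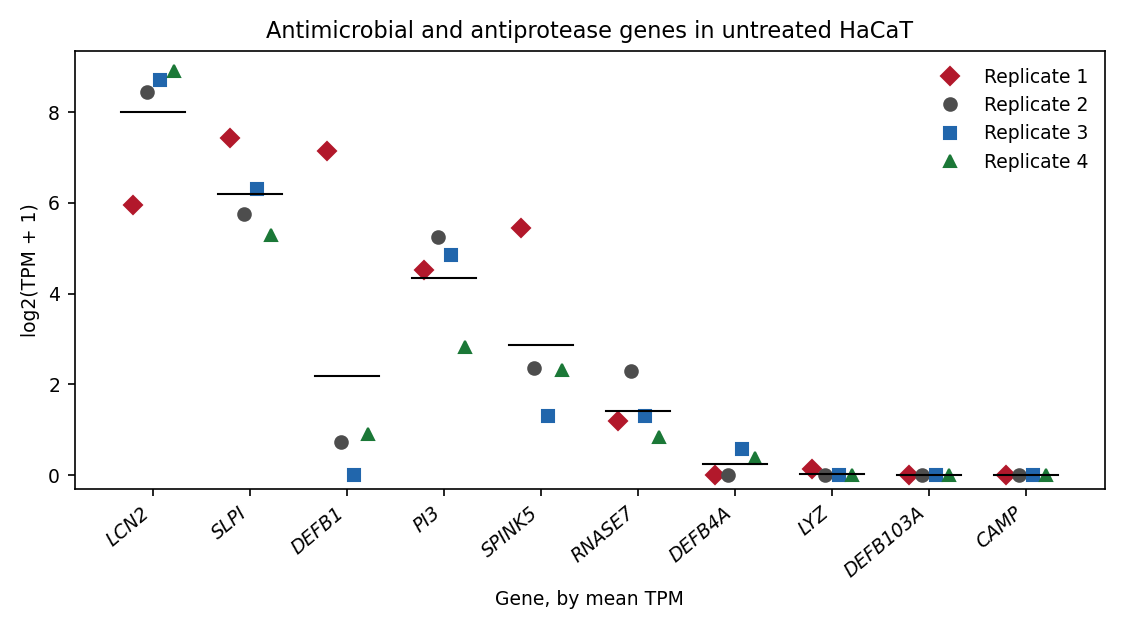
Level of each member as log2(TPM + 1) in the 4 replicates (symbols), with genes in the order of their mean TPM and the mean of the log2 values as a bar. LCN2 is lowest in replicate 1 (TPM 61.1), where DEFB1, SLPI and SPINK5 are highest, and the 4 genes on the right lie at or near 0.

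Among the antimicrobial proteins LCN2 (chr9:130911709-130915734 on hg19, the build of the files) was the highest. The 4 libraries had a TPM of 61.1, 345, 416 and 479, from 1254 to 3163 counts. The mean was 325 ± 184 (SD, n = 4). Replicates 2 to 4 lay within 1.39 times of each other, with 414 ± 66.8 (SD, n = 3), and stood at percentiles 98.0 to 98.7 of all protein-coding genes. Replicate 1 was below all of them, at percentile 86.0. Its level was 0.177 times that of replicate 2 (95% Clopper-Pearson interval 0.165 to 0.190) and 0.128 times that of replicate 4 (0.119 to 0.136). Intervals of this kind hold counting error alone and leave out other variation between libraries. Duplicate reads of 1 molecule were not marked by molecular identifiers, so even the counting error may be understated.

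RNASE7 (chr14:21510385-21512392) was low, with more than 3 counts in all 4 libraries. Its TPM was 1.29, 3.92, 1.49 and 0.806, a mean of 1.87 ± 1.39 (SD, n = 4), from 9 to 47 counts. Replicate 2 was the highest, 3.03 times replicate 1 (1.93 to 4.74), while replicate 1 was not distinguishable from replicate 3 or 4 by counting error. RNASE7 lies within NDRG2 on the opposite strand, and the strand setting of the counting is not given in the sources used here, so reads of either gene could be shared. LYZ (chr12:69742134-69748013) had 4 counts in replicate 1, a TPM of 0.109, and 0 in the others, where 3 counts would be a TPM of 0.220 to 0.298. Lysozyme RNA was thus not detectable in 3 of 4 libraries.

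Of the defensins and cathelicidin, DEFB1 alone had more than 3 counts in any library. DEFB1 (chr8:6728097-6735529) had 1569 counts in replicate 1 and 2, 0 and 3 counts in replicates 2 to 4. These are a TPM of 139 against 0.650, 0 and 0.870, so that replicate 1 did not overlap the others. In replicate 1 it stood at percentile 94.5 of protein-coding genes, above LCN2. Its level there was 215 times that of replicate 2 (59.3 to 1774) and 160 times that of replicate 4 (54.8 to 778). Set against a floor of 3 counts in replicate 3, which held none, it was 193-fold higher. The lower limit of the 95% interval of the ratio to the observed 0 counts was 157. The mean of 35.2 ± 69.5 (SD, n = 4) therefore describes 1 library, and without replicate 1 DEFB1 had 0.506 ± 0.452 (SD, n = 3) and was no longer detected.

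DEFB4A (chr8:7752087-7754238), the gene of human beta-defensin 2, had 0, 0, 2 and 1 counts, none above the limit of 3 counts, which is a TPM of 0.275 to 1.00. DEFB103A (chr8:7738726-7740186), the gene of human beta-defensin 3, had 0 counts in all 4 libraries, as did CAMP (chr3:48264837-48266981). These zeros allow a TPM of up to 0.238 in replicate 1 and 0.871 in replicate 2 for DEFB103A, and of up to 0.166 and 0.606 for CAMP. DEFB4A and DEFB103A each have a near-identical copy, DEFB4B and DEFB103B, and the counting could have left out reads that fit both. Both copies were at 0 in every library.

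The antiproteases all had more than 3 counts in every replicate. SLPI (chr20:43880880-43883205) had a TPM of 171, 53.3, 78.2 and 38.1, a mean of 85.1 ± 59.5 (SD, n = 4), from 169 to 2473 counts. Replicate 1 was 2.18 times replicate 3 (1.97 to 2.43) and 4.49 times replicate 4 (3.84 to 5.27). Without replicate 1 the mean was 56.5 ± 20.3 (SD, n = 3). SLPI was the only member whose highest library changed when TPM was taken over all RNA classes in place of protein-coding genes: replicate 1 then had 52.9 and replicate 3, with 68.4, was the highest. That scale lowers the median gene of replicate 1 by 1.56 on the log2 scale, and that of the other replicates by 0.10 to 0.18.

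PI3 (chr20:43803540-43805185) had 21.8, 36.9, 27.7 and 6.06, a mean of 23.1 ± 12.97 (SD, n = 4). The replicate farthest from the rest was replicate 4 for PI3, with 25 counts against 136 to 294 elsewhere, and replicate 1 for SLPI. Neither gap reached the limit used below to call a replicate far from the rest. Replicate 4 was the lowest library for both genes. Replicate 1 was 3.61 times replicate 4 (2.39 to 5.66). The 2 WAP inhibitors lie near each other on chromosome 20, and SLPI exceeded PI3 per length in each library, by 7.82 times in replicate 1 (6.93 to 8.85), 1.44 times in replicate 2 (1.16 to 1.80), 2.82 times in replicate 3 (2.32 to 3.45) and 6.28 times in replicate 4 (4.11 to 9.99).

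SPINK5 (chr5:147443535-147516925) had 42.9, 4.16, 1.48 and 3.99, a mean of 13.1 ± 19.9 (SD, n = 4), from 51 to 3996 counts. Replicate 1 lay above the others by 10.3 times (8.504 to 12.6) for replicate 2, 28.98 times (22.0 to 39.0) for replicate 3 and 10.7 times (8.92 to 13.1) for replicate 4. Without replicate 1 the mean was 3.21 ± 1.501 (SD, n = 3), where RNASE7 had 2.07 ± 1.63. The kallikreins that its product inhibits did not share this pattern. KLK5 had 255, 442, 257 and 294 and KLK7 had 17.0, 20.3, 10.6 and 18.4. SPINK5 per length was 2.52 times KLK7 in replicate 1 (2.34 to 2.71) and 0.139 to 0.218 times KLK7 in the others. It was below KLK5 in each library, at 0.169 times KLK5 in replicate 1 (0.162 to 0.175) and 0.00576 to 0.0136 times in the rest.

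The order of the detected members by mean TPM was LCN2, SLPI, DEFB1, PI3, SPINK5 and RNASE7, and 4 replicates allow no test of neighbours to pass 0.05. On the log2(TPM + 1) scale, which understates differences of low genes, LCN2 exceeded SLPI by 1.81 ± 2.24 (SD, n = 4) and in 3 of 4 replicates (p = 0.25 by an exact permutation test that flips signs, two-sided here and below). SLPI exceeded DEFB1 by 4.01 ± 2.60 in 4 of 4 (exact permutation test, p = 0.13, the smallest that 4 replicates allow). PI3 was above DEFB1 in 3 of 4 replicates although its mean TPM was lower, and the mean log2 difference of DEFB1 from PI3 was -2.17 ± 3.45 (exact permutation test, p = 0.375). PI3 exceeded SPINK5 by 1.49 ± 2.08 in 3 of 4 (exact permutation test, p = 0.375), and SPINK5 exceeded RNASE7 by 1.45 ± 1.99 in 3 of 4 (exact permutation test, p = 0.25). Adjusted over the 5 pairs by the Benjamini-Hochberg method each p was 0.375. Without replicate 1 LCN2 exceeded SLPI by 2.90 ± 0.64 and SLPI exceeded DEFB1 by 5.24 ± 0.98, while DEFB1 differed from PI3 by -3.76 ± 1.61 (SD, n = 3). PI3 then exceeded SPINK5 by 2.30 ± 1.60 and SPINK5 exceeded RNASE7 by 0.51 ± 0.83 (SD, n = 3). The first 4 of these differences were larger than their spread, and that of SPINK5 from RNASE7 was not. The order within a library was SLPI, DEFB1, LCN2, SPINK5, PI3 and RNASE7 in replicate 1, while LCN2, SLPI and PI3 led in this order in each of the other 3.

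The summed TPM of the 3 antiproteases was 236, 94.3, 107 and 48.1 in replicates 1 to 4, and that of the 7 antimicrobial members was 202, 350, 418 and 481. Their ratio was 1.17 in replicate 1 and 0.270, 0.257 and 0.10 in the others. The mean log2 ratio was -1.74 ± 1.46 (SD, n = 4), with the antiproteases lower in 3 of 4 replicates (p = 0.25 by the same exact permutation test). Without replicate 1 it was -2.39 ± 0.81 (SD, n = 3). With the union of exons annotated in GENCODE release 29 as gene length, 1598 in place of 845 bases for LCN2, the mean log2 ratio was -1.02 and the difference between LCN2 and SLPI was 0.90.

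The members varied widely over replicates of 1 condition. All 5 with more than 3 counts in every library had a highest TPM over 4 times the lowest, against 26.4% of the 12633 protein-coding genes with such counts. The range was 4.49 times for SLPI, 4.86 for RNASE7, 6.10 for PI3, 7.84 for LCN2 and 28.98 for SPINK5, where the median detected gene had 2.43. In TPM over all RNA classes the range was 1.93 times for SLPI, which then did not pass, 8.68 for RNASE7, 5.81 for PI3, 23.6 for LCN2 and 10.3 for SPINK5. With DEFB1, which reached a mean TPM above 1 only through replicate 1 and so had to differ, it was 6 of 6 detected members, against 26.4% of detected genes. Without replicate 1, 2 of 5 members passed, PI3 and RNASE7, against 4.99% of genes. Replicate 1 was the highest library for 3 of 6 detected members (DEFB1, SLPI and SPINK5), against 40.2% of detected genes, and the lowest for 1 of 6 (LCN2), against 37.4%. On the log2 scale replicate 1 lay far from the other 3 by Dixon's ratio for 2 of 6, DEFB1 and LCN2, against 9.26% of detected genes. DEFB1 was among the 6 only through replicate 1, so that its calls were fixed by the limit for detection, and of the other 5 members replicate 1 was the highest library for 2 and far from the rest for 1.

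**Figure D2:**
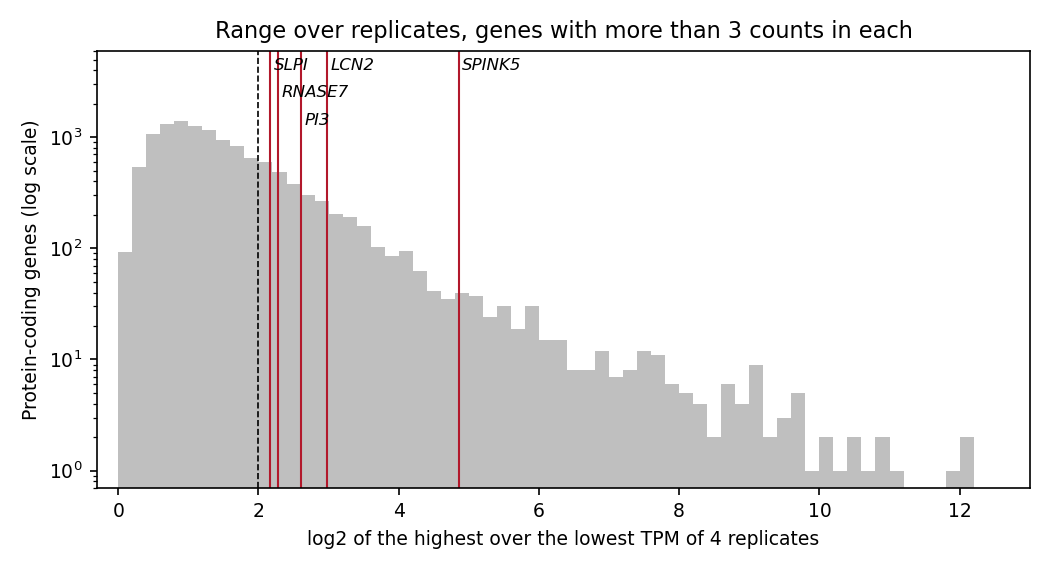
Number of protein-coding genes (log axis) by the log2 of the highest over the lowest TPM of 4 replicates, for the 12633 genes with more than 3 counts in each. Red lines mark the 5 members among them, and all lie to the right of the dashed line at 4 times, SPINK5 (28.98 times) the farthest.

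Of 8 detected genes of terminal keratinocyte differentiation 5 were highest in replicate 1, as SPINK5, SLPI and DEFB1 were, where 40.2% of all detected genes were. KRT10, an early suprabasal keratin, had a TPM of 229 in replicate 1 and 31.3 to 52.4 in the others. IVL, involucrin of the cornified envelope, had 202 against 4.06 to 14.9, and KRT1, the partner of KRT10, had 124 against 0.219 to 0.545. FLG, filaggrin, was instead highest in replicate 2 (14.3 against 6.36 in replicate 1), as was SPRR2A (3.33 against 0.486), and CNFN was highest in replicate 4 (4.58 against 3.90). The 8 all had a range over 4 times, where 26.4% of detected genes did. KRT1 was among the 8 only through replicate 1, so both of its calls were fixed by the limit for detection. The same holds for DEFB1 among the members. The 10 genes of the list summed to a TPM of 645 in replicate 1 against 68.5 to 87.5 elsewhere. The part of cell state in the levels of SPINK5, SLPI and DEFB1 was not tested.

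Interferon-induced genes divided the libraries in another way, which no member followed in full. The median TPM of 16 such genes was 11.5, 250, 269 and 14.8 in replicates 1 to 4. PI3 was likewise highest in replicates 2 and 3, with 36.9 and 27.7 against 21.8 and 6.06. Its replicate 1 stood nearer to these than to replicate 4. RNASE7 was also highest in replicates 2 and 3, with 3.92 and 1.49 against 1.29 and 0.806. Its replicates 1 and 3 were not distinguishable by counting error. LCN2 was highest in replicate 4 and SLPI in replicate 1. GC content also moved with replicate 1: across 11889 detected genes the Spearman correlation of GC content with the deviation of a gene in replicate 1 was -0.51, and 0.24 to 0.38 in the others. The GC content of the longest coding transcript was 54.7% for LCN2, 53.6% for PI3, 52.2% for SLPI, 48.3% for DEFB1 and 43.6% for SPINK5, where the median detected gene had 49.1%. The part of GC content in the levels of LCN2, SPINK5 and DEFB1 was not tested.

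**Figure D3:**
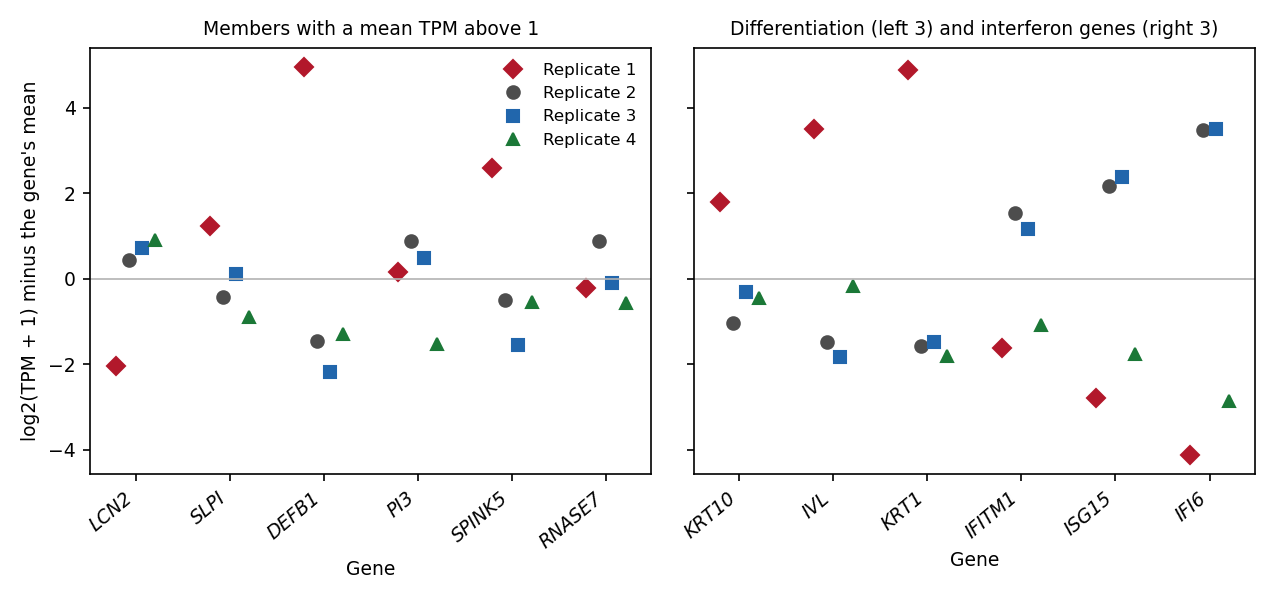
Log2(TPM + 1) of each gene minus its mean over 4 replicates, by replicate (symbols), for the 6 detected members (left) and for the 3 highest genes of the differentiation and of the interferon list (right). Replicate 1 lies highest for SPINK5, SLPI and DEFB1, as for KRT10, IVL and KRT1, and lowest for LCN2, while the interferon genes are highest in replicates 2 and 3.

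Most other antimicrobial genes of epithelia were not detected. Of 53 measured, 11 had a mean TPM above 1, against 63.3% of protein-coding genes, and 33 had 0 counts in every library, against 14.2%. The highest were ADM, a peptide hormone with antimicrobial activity, at 91.9 ± 28.0, NAMPT, an enzyme of NAD synthesis also secreted as a cytokine, at 63.1 ± 11.0, and S100A9, a subunit of calprotectin, at 27.0 ± 7.52 (SD, n = 4). In TPM over protein-coding genes each of these had a narrower range over replicates, 1.87, 1.46 and 2.04 times, than any detected member. Their ranges were not computed in TPM over all RNA classes, where SLPI had 1.93 times. The 3 with a range over 4 times were RNASE4, PGLYRP3 and PGLYRP4, a ribonuclease and a pair of peptidoglycan recognition proteins. PGLYRP4 had 13.1 in replicate 1 and 0.209 to 0.353 elsewhere, and PGLYRP3 had 4.39 against 0.190 to 1.03. Both reached a mean TPM above 1 only through replicate 1. Their wide range and their highest library were therefore fixed by the limit for detection.

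Of the other protease inhibitors SPINT1, SPINT2 and CST3 had means of 325 to 352, near the mean TPM of LCN2. In the WAP family 6 of 16 genes were detected, led by WFDC2, an epithelial WAP protein, at 140 ± 51.1, with ANOS1 at 2.75 ± 1.67 and WFDC11 at 2.29 ± 4.45 (SD, n = 4). WFDC2 was lowest in replicate 1 (80.5 against 134 to 205), so SLPI was 2.12 times WFDC2 in replicate 1 (1.98 to 2.28) and 0.185 to 0.582 times in the others. Among Kazal and Kunitz inhibitors 4 of 16 were detected. For both these lists the share over all protein-coding genes was 63.3%. SPINT1 and SPINT2, membrane inhibitors of matriptase and related proteases, had 342 ± 168 and 325 ± 23.2 (SD, n = 4). TFPI2, a secreted Kunitz inhibitor, had 0.219 in replicate 1 and 28.3 to 43.6 in the others, the reverse of SPINK5. None of the 9 other SPINK genes of the list was detected: the highest, SPINK1, had 0.354 ± 0.112 (SD, n = 4).

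Cystatins inhibit cysteine proteases, and 4 of 11 genes of that list were detected, against 63.3% of protein-coding genes. CST3 had 352 ± 113 and CSTB 171 ± 47.5 (SD, n = 4), both lowest in replicate 1. CSTA, which is part of the cornified envelope, was instead highest there, with 284 against 42.1 to 75.2. Of 18 proteases that members act on or are cut by, 13 were detected, against the same 63.3%. They were led by CTSD at 1531 ± 469, CTSB at 444 ± 113 and ST14, matriptase, at 412 ± 114 (SD, n = 4). Neutrophil elastase (ELANE), a target of SLPI and elafin, and proteinase 3 (PRTN3), which elafin inhibits and which releases the peptide from cathelicidin, had 0 counts in every library. MMP9, which LCN2 binds, had a mean of 1.35, and LCN2 per length was 168 to 385 times MMP9 in single libraries.

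**Figure D4:**
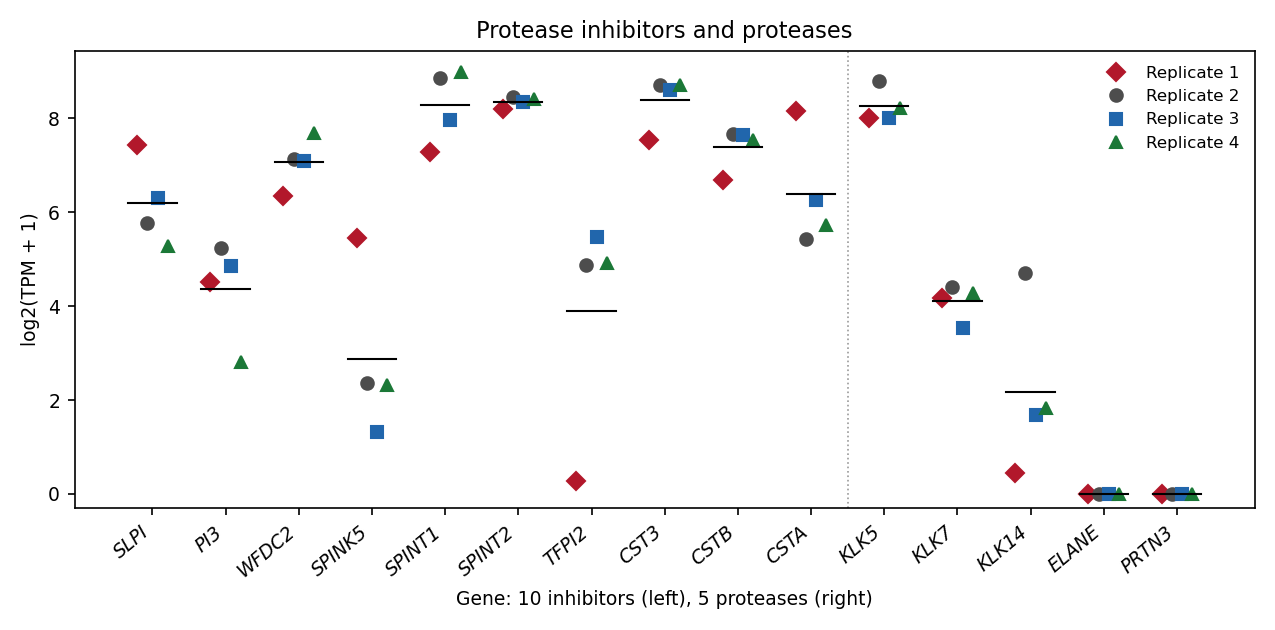
Log2(TPM + 1) of 10 protease inhibitors (left of the dotted line) and 5 proteases in the 4 replicates (symbols), with the mean of the log2 values as a bar. SPINK5, SLPI and CSTA are highest in replicate 1, TFPI2 is near 0 there, KLK5 lies between 255 and 442, and ELANE and PRTN3 are at 0.

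Of 18 receptors and partners of the members 8 were detected, where 63.3% of protein-coding genes were, led by ANXA2 at 3468 ± 800, RNH1, the ribonuclease inhibitor that binds RNASE7, at 284 ± 20.5, and GRN, the progranulin that SLPI protects from elastase, at 228 ± 74.3 (SD, n = 4). The LCN2 receptor gene SLC22A17 had 0.940 ± 0.596 (SD, n = 4), below the limit for detection. Of 45 genes listed as inducers or related to them 39 were detected, against 63.3% of protein-coding genes. Of the 39, 18 had a range over 4 times, against 26.4% of detected genes. The transcription factor genes CEBPB, at 150 ± 61.5, and STAT3, at 145 ± 55.0 (SD, n = 4), were not among the 18, with ranges of 2.81 and 2.40 times. Of the members LCN2 was lowest in replicate 1, and DEFB1, SLPI and SPINK5 were highest there. Of the 39 detected genes of the inducer list 25 were lowest there, against 37.4% of all detected genes, and 7 were highest, against 40.2%. IL1B (3.93, 92.9, 64.8 and 61.1) and RELA (33.3, 192, 156 and 129) were of the former kind. NFKBIZ (37.2, 14.9, 8.99 and 13.3) and CEBPA (35.3, 11.5, 11.5 and 8.62) were of the latter. The part of these genes in the levels of the members was not tested. Of the interleukin 36 genes IL36A was at 0 and IL36G had 0.787 ± 1.13 (SD, n = 4), and IL17C had 0.0720.

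The libraries had the RNA of basal keratinocytes, with 7 of 7 marker genes detected, led by KRT14 at 6847 ± 561, KRT5 at 3244 ± 1504 and LAMB3 at 612 ± 195 (SD, n = 4). LCN2, CAMP and SLPI are also genes of neutrophils and LYZ of macrophages. Of 9 neutrophil markers none was detected, with a summed TPM of 0.0820 to 0.362 and MPO, ELANE, AZU1, CTSG, PRTN3 and FCGR3B at 0. Of 8 macrophage markers 2 were detected, CD68 at 26.5 ± 17.3 and CD14 at 6.25 ± 2.73, both also expressed outside macrophages, while ITGAM had 0.357 and AIF1 and TYROBP were at 0 (SD, n = 4). The summed TPM was 6.45 to 11.5 for 7 fibroblast markers, of which 3 were detected, and 3.74 to 9.12 for 5 melanocyte markers, of which 2 were. Of 8 glandular markers 4 were detected, with KRT8, KRT7 and KRT18 at means of 2391, 2357 and 1118, and AQP5, PIP and SCGB2A2 at 0. The glandular list summed to 2823 in replicate 1 against 6810 to 7109 elsewhere. KRT8, KRT7 and KRT18 made up most of this sum, with 1095, 1272 and 444 in replicate 1. The other detected gene, MUC1, had 9.78, 47.6, 8.78 and 49.6, and SCGB1D2 had 2.44 in replicate 1 and 0 elsewhere. The part of the list in the level of LCN2 was not tested.

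The protein-coding genes whose profiles over the 4 replicates came nearest to each member were listed by the distance of their centred log2(TPM + 1) values. This measure rests on 4 libraries and describes them only. For LCN2 they were KLF16, MYCBP and CHMP3 (distances 0.05, 0.14 and 0.17), and for DEFB1 they were HIST1H2AK, OLFM4 and ALDH1A1 (0.17, 0.56 and 0.63). OLFM4, a secreted glycoprotein of epithelia and neutrophils, had a TPM of 536 in replicate 1 and 4.12 to 4.95 in the others. SPINK5 was nearest to TMEM37, SLITRK6 and LYNX1 (0.24, 0.25 and 0.33) and SLPI to RPS27L, RPL39 and BORCS7 (0.20, 0.24 and 0.26). PI3 was nearest to GAST, RAB19 and IGFL1 (0.35, 0.39 and 0.52), and genes near to RNASE7 included C11orf91 and MB21D2 (0.24 and 0.26).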

How the data were processed

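RNA-seq of 4 replicates of untreated HaCaT was used, with samples named by their labels. The authors deposited raw counts per gene, without normalization, with a gene length for each. They also deposited RPKM for replicates 1 and 2 and TPM for replicates 3 and 4, which were recomputed from the counts within 0.1% for 100% of values and not used further. The submitters' processing notes name hg19, HISAT2, HISAT, TopHat2 and Bowtie2, and the counting program and annotation are not given in the sources used here. TPM over protein-coding genes was computed from deposited counts and lengths. The pseudocount was 1 on the log2 scale. The members and lists were chosen with earlier results of these data known. All members, the 3 highest genes of each other list and the 3 nearest profiles were named, and other genes after their values were seen. Genes that this rule would name but that are missing from the text are not reported here. Exact sign-flip permutation tests were two-sided. p-values measure the spread between these 4 samples. TMM factors came from edgeR 4.0.16 (R 4.3.3), and the rest was run with SciPy 1.17.1, pandas 2.3.3 and NumPy 2.4.6 in Python 3.11.15, and plots with matplotlib 3.10.9. GENCODE release 29 gave the GC content (97.7% of detected genes) and exon lengths (97.1% of protein-coding genes). The range, gap and likeness measures were tested on simulated data. Counts per library limit the precision, with 16250026 to 55607710 protein-coding counts. No differential test was made, since there is 1 condition. Alternatives were another scaling, length, limit, pseudocount and each replicate left out. Taking out histone and mitochondrial genes and using linear TPM were added after seeing the data.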

Additional observations from a re-analysis of the deposited data

Results flagged for a closer look

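A replicate far from the other 3 was looked for on the log2(TPM + 1) scale as the gap to the nearest replicate over the whole range, against the 95% limit of Dixon's test. It was found for 2 of 6 detected members, against 9.26% of detected genes, and chance gives about 1 in 20. DEFB1 was among the 6 only through replicate 1, so its gap was fixed by the limit for detection, and 1 of the other 5 members, LCN2, had such a gap. DEFB1 in replicate 1 had a gap of 0.873 of the range, with a TPM of 139 against at most 0.870. LCN2 in replicate 1 had a gap of 0.841, with 61.1 against at least 345. Both were in the library that stood apart across genes. No explanation was tested.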

How the results depend on the processing

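The summed level of the 10 members, a TPM of 484 ± 50.1 (SD, n = 4), was 370 ± 162 in TPM over all RNA classes and 176 as a share of protein-coding counts scaled like TPM but without length correction. Without length correction the difference between PI3 and SPINK5 turned to -0.92 on the log2 scale. The number of members with a range over 4 times, 6 of 6, was 2 to 6 when each replicate was left out. It was 2 without replicate 1 and 3 without replicate 4. In TPM over all RNA classes it was 5, where SLPI did not pass. For a range over 8 times it was 2, SPINK5 and DEFB1, of which DEFB1 had to differ. The share of detected genes was 26.4% in the main setting and 4.99% without replicate 1. It was not computed for the other alternatives. The number of detected members was 5 without replicate 1, 7 for a mean TPM above 0.1 and 8 for any value above 0. LCN2 was the highest member in 3 of 4 replicates under each scaling and length tried. Of 110 levels of single members under alternatives 107 moved by no more than the SD over replicates, and 3 moved by more, LCN2, PI3 and SLPI without length correction. This count does not measure stability. For DEFB1, DEFB4A, LYZ and SPINK5 the SD was larger than the mean, so that no fall could count as a move. DEFB1 did not count as moved although it fell from 35.2 to 0.506 without replicate 1. CAMP and DEFB103A were at 0 in each setting. No p from the sign-flip tests can pass 0.05 with 4 replicates, so the side of the threshold says nothing about stability. Depth limits the low members: 3 counts are a TPM of 0.166 to 0.606 for CAMP.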
